A study of Rattus norvegicus with 34 samples.

Results

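In the sperm of rats descended from males given ifosfamide at puberty, 5397 windows of 1 kb carried MeDIP signal that had shifted in the F2 generation while standing close to control in the F1 generation. They were chosen by the measured signal itself, out of 2782040 windows of the genome. On chromosomes 1 to 20, which hold 2618741 windows, a window had to reach a mean of 0.5 RPKM over the 6 F1 control pools, which 743101 windows did. Its F1 ifosfamide mean had to lie between 0.9 and 1.1 times the F1 control mean, which left 357579 windows. Its F2 ifosfamide mean then had to be at least 1.5 times the F1 control mean, which gave 878 higher windows, or at most 0.67 times, which gave 4519 lower windows. The remaining 352182 windows are termed unshifted. RPKM is the number of reads scaled to the length of the window in kilobases and to the number of reads in the library.

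The study used outbred Hsd Sprague Dawley rats. F0 males received 8.5 mg/kg ifosfamide into the peritoneum, or 1.1 mL/kg phosphate-buffered saline, on days 26, 29 and 32 of age. F1 and F2 animals were not treated, and F1 animals were mated at 80 to 90 days with unrelated F1 animals of their own lineage. The 3 groups used here are F1 control, from saline-treated F0 males, and F1 and F2 ifosfamide, from ifosfamide-treated F0 males, with 6 pools of sperm DNA each. Sperm DNA of 3 to 4 males went into each F1 pool, and that of 8 to 9 males into each F2 ifosfamide pool. The labels count 43 F2 ifosfamide males, whereas 6 pools of that size would take 48 to 54, and they do not say which males entered which pool. The spread between pools is therefore a spread between these DNA samples, not between known sets of separate animals. The F2 control pools were not analysed here, so lineage, generation and pool size cannot be told apart in values of F2 ifosfamide against F1 control. Against F1 ifosfamide, which is of the same lineage, generation and pool size cannot be told apart.

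Ifosfamide is an alkylating chemotherapy drug that crosslinks DNA. Puberty is when the germ cells of the testis first complete the path from stem cell to sperm. Mature sperm of mammals carry methyl groups on most CpG sites, with stretches of unmethylated CpG-rich DNA at many gene starts. In methylated DNA immunoprecipitation followed by sequencing (MeDIP-seq), an antibody to methylcytosine enriches methylated fragments, so the signal of a window follows both how methylated it is and how many CpG sites it holds. Windows are given by their position in the Rnor_6.0 build, counted from 1. No gene annotation of that build was used here, so no window is assigned to a gene.

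The libraries held 23336048 to 39440265 window counts each. Adjacent windows share part of their reads, since the windows of a library summed to at least 1.16 counts per read. The share of autosomal counts in the 10% of windows with most counts was 38.5% to 39.9% in F1 control, 39% to 39.7% in F1 ifosfamide and 38.9% to 40.0% in F2 ifosfamide pools. The 3 groups overlapped fully in this measure of how strongly the pull-down concentrated reads. F1 ifosfamide pools 1 and 2 lay closer to each other than to the other pools of their group, with a chi-square per window of 1.08, where either of them set against pools 3 to 6 gave 1.34 to 1.78. Pairs of F2 ifosfamide pools gave at most 1.27. The highest values among them were those of F2 pool 1 against pools 3 to 6, at 1.24 to 1.27. F2 pool 1 against pool 2 gave 1.13, and F2 pairs without pool 1 gave at most 1.16. Pairs of F1 control pools gave at most 1.44. Every pool entered the rule, so the levels, ratios and fits below describe the selected windows and are not tests of them.

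The selected windows carried weak signal. The median higher window had 0.638 RPKM in F1 control, 0.648 in F1 ifosfamide and 1.00 in F2 ifosfamide sperm. The median lower window had 0.67, 0.663 and 0.42 RPKM in the same order, against 0.858, 0.858 and 0.855 in unshifted windows. Of the higher windows 89.7% lay below 1 RPKM in F1 control, as did 86.1% of the lower windows and 61.6% of the unshifted ones. In raw counts summed over 6 pools, the median higher window held 91 counts in F1 control and 153.5 in F2 ifosfamide. The median lower window held 95 and 65.

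Selection became rarer as the control signal rose. From 0.5 to 0.6 RPKM, 0.55% of F1-stable windows were selected as higher and 2.37% as lower. From 1 to 1.5 RPKM these shares were 0.0827% and 0.689%, and from 2 to 4 RPKM they were 0.0377% (10 windows) and 0.0641% (17 windows). None of the 2198 F1-stable windows at 4 RPKM or more was selected in either direction. The spread of the F2 ratio narrowed along the same axis. Its central 90% ran from 0.72 to 1.31 in the lowest band and from 0.825 to 1.19 between 2 and 4 RPKM, around medians of 0.99 and 0.989. How much of this fall is counting noise in weak windows was not tested.

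**Figure D1:**
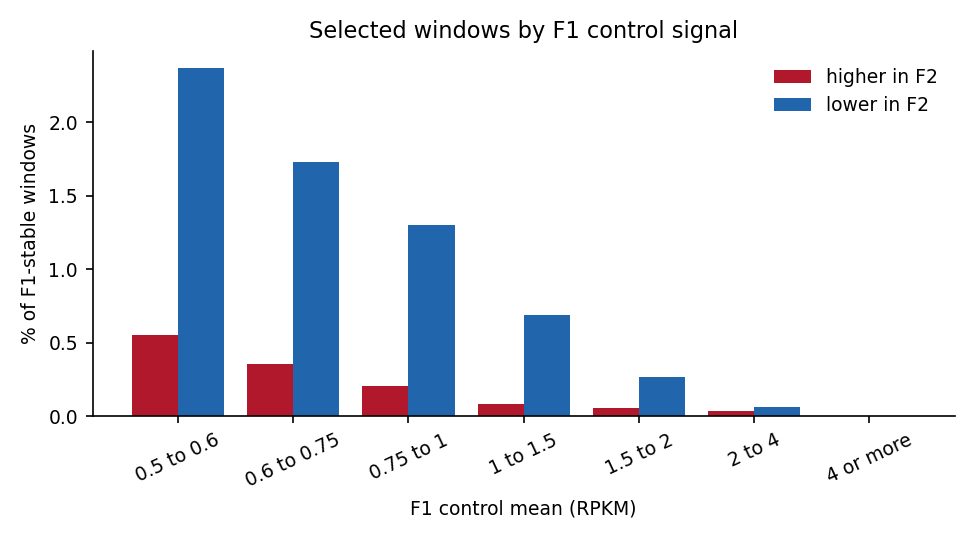
Share of F1-stable windows (F1 ifosfamide mean within 0.9 to 1.1 times F1 control) selected as higher (red) or lower (blue) in F2 ifosfamide sperm, in percent on the vertical axis, by F1 control mean in RPKM on the horizontal axis. Both shares fall from the lowest band, at 0.55% and 2.37%, to 0 at 4 RPKM or more, and the lower share is above the higher share in every band that holds a selected window.

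Most selected windows sat close to the threshold. The ratio of F2 ifosfamide to F1 control had a median of 1.55 and a maximum of 2.32 in higher windows, and a median of 0.635 and a minimum of 0.35 in lower windows. The 95% interval of the ratio of summed counts (exact Clopper-Pearson, covering counting error only) had median bounds of 1.2 and 2.02 over the higher windows. Over the lower windows it had median bounds of 0.459 and 0.867. It lay wholly past the threshold in 4 higher windows (0.456%) and 28 lower windows (0.62%). The windows nearest to the threshold show how thin the border is. On chromosome 12 at 42145001 to 42146000 the F1 control mean was 1.10 RPKM and the F2 ifosfamide mean 1.66, a ratio of 1.50 that was just selected. On chromosome 10 at 90021001 to 90022000 the means were 2.77 and 4.15 RPKM, a ratio of 1.4991 that was not. On the lower side, the window on chromosome 7 at 29907001 to 29908000 (0.505 and 0.338 RPKM) was just selected, and the one on chromosome 16 at 63936001 to 63937000 (1.15 and 0.772 RPKM) was not.

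Lower windows outnumbered higher ones by 5.15 to 1, or 1.26% against 0.246% of the F1-stable windows. The balance depended on which group carried the floor of 0.5 RPKM. With the floor on the mean of the 3 groups, the rule gave 1388 higher and 3324 lower windows, and with the floor on F2 ifosfamide it gave 2650 higher and 1424 lower windows, so the direction of the imbalance turned. The lower threshold of 0.67 is also slightly looser than the reciprocal of 1.5, at which 4271 lower windows (94.5%) were left. The 2 counts alone therefore give no direction for a net change of signal.

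The same rule with the groups exchanged also selected windows. Windows shifted in F1 ifosfamide while F2 ifosfamide stood within 0.9 to 1.1 times F1 control numbered 885 higher and 3332 lower, or 0.252% and 0.95% of 350809 windows. Windows in which F1 control stood apart from 2 ifosfamide groups that lay close to each other, with the floor on F1 ifosfamide, were fewer. They numbered 73 with control at 1.5 times or more and 1662 with control at 0.67 times or less, or 0.0248% and 0.565% of 294145 windows. These 3 sets share pools and are given side by side without a test. On the X chromosome, which the rule leaves out, the same conditions held for 12 higher (0.186%) and 40 lower windows (0.619%) of 6466.

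Within the selected windows most F2 pools moved the same way, but few windows separated the groups completely. In 695 higher windows (79.2%) all 6 F2 ifosfamide pools lay above the F1 control mean, and in 3777 lower windows (83.6%) all 6 lay below it. Every F2 pool lay above every F1 control pool in 113 higher windows (12.9%), against 0.186% of all 743101 windows that passed the floor. Every F2 pool lay below every control pool in 434 lower windows (9.6%), against 0.249%. Set against all 12 F1 pools, the F2 pools stood apart in 38 higher (4.33%) and 140 lower windows (3.1%), where the floor-passing windows gave 0.0284% and 0.0509%. The rule used these same pools, so nothing further is read from the difference. In unshifted windows the F2 pools stood wholly above the control pools in 0.111% and wholly below in 0.141%.

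In most selected windows 3 or 4 of the 6 F2 pools were themselves past the threshold. Since the F2 mean mostly lay close to it, a pool short of the threshold could still be shifted. Among higher windows 350 had 3 pools and 347 had 4 pools at 1.5 times the control mean or more, and 5 had all 6. Among lower windows 1530 had 3 pools, 1945 had 4 pools and 69 had all 6 at or below 0.67. The shift was not carried by 1 pool in most windows: the most shifted F2 pool made up a median of 29.1% of the summed shift in higher windows and 26.8% in lower windows. It made up 50% or more in 2 higher windows and in none of the 4519 lower windows.

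**Figure D2:**
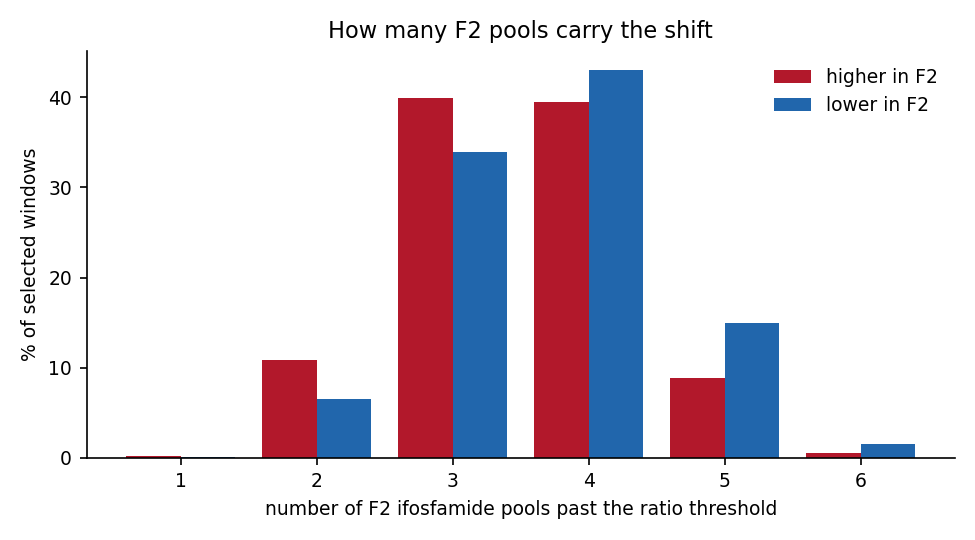
Percentage of selected windows on the vertical axis by the number of F2 ifosfamide pools, of 6, that were themselves past the ratio threshold against the F1 control mean on the horizontal axis. Windows with 3 or 4 such pools make up most of both sets (350 and 347 of 878 higher windows, 1530 and 1945 of 4519 lower windows).

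The pools of a group did not contribute alike. F2 ifosfamide pool 1 was the least shifted in both directions, with a median of 1.31 times the control mean in higher windows and 0.736 times in lower windows. The other 5 F2 pools had medians of 1.47 to 1.73 and of 0.58 to 0.604. Pools 1 and 2 together were the 2 least shifted F2 pools in 210 higher windows (23.9%). The other 14 pairs were so in 11 to 110 windows each. In lower windows pools 1 and 2 were the least shifted pair in 610 (13.5%). There the other pairs with pool 1 were so in 465 to 553 windows, and pairs without pool 1 in 142 to 216. In unshifted windows below 1 RPKM pools 1 and 2 stood at 0.982 and 0.955 times the control mean, pool 2 being the lowest, and the other 4 F2 pools at 0.971 to 1.01.

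F1 pools also differed among themselves in these windows, and in mirrored order. In higher windows F1 ifosfamide pools 1 and 2 had medians of 1.21 and 1.14, and F1 control pools 6 and 4 had 1.12 and 1.07, whereas F1 control pool 1 and F1 ifosfamide pool 5 had 0.862 and 0.852. In lower windows F1 ifosfamide pools 1 and 2 stood at 0.885 and 0.908 and F1 control pools 4 and 6 at 0.892 and 0.944, whereas F1 control pool 1 stood at 1.09. Pools of both F1 lineages thus lay partly toward the F2 values and partly away from them, and their means met near 1. The share of counts in the 10% of windows with most counts was 39.2%, 39.1%, 39.5% and 38.5% in the pools toward F2 (F1 ifosfamide 1 and 2, F1 control 6 and 4), and 38.5% and 39.4% in F1 control pool 1 and F1 ifosfamide pool 5. In the 50% of windows with fewest counts the share was 13.4%, 13.6%, 13.4% and 13.9% in the former, 14.1% and 14.4% in the latter. The other F1 pools, with medians of 0.902 to 0.99 in higher windows, had 13.4% to 14.7%. F1 control pool 3, F1 ifosfamide pool 5 and F1 control pool 1 had the lowest medians of all F1 pools and the largest shares, at 14.7%, 14.4% and 14.1%. The order was not strict, since F1 control pool 4 (median 1.07) had 13.9% and F1 ifosfamide pool 6 (median 0.954) had 13.4%. Among F2 pools it was 13.6% in the least shifted, pool 1, and 13.2% to 14% in the others. The part of this share in the order of the pools was not tested. In all, the coefficient of variation between pools had medians of 26% in F1 control, 26.8% in F1 ifosfamide and 20.8% in F2 ifosfamide for higher windows. It was 24.7%, 24.5% and 29.4% for lower windows, and 21.8%, 21.5% and 20.4% for unshifted windows.

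**Figure D3:**
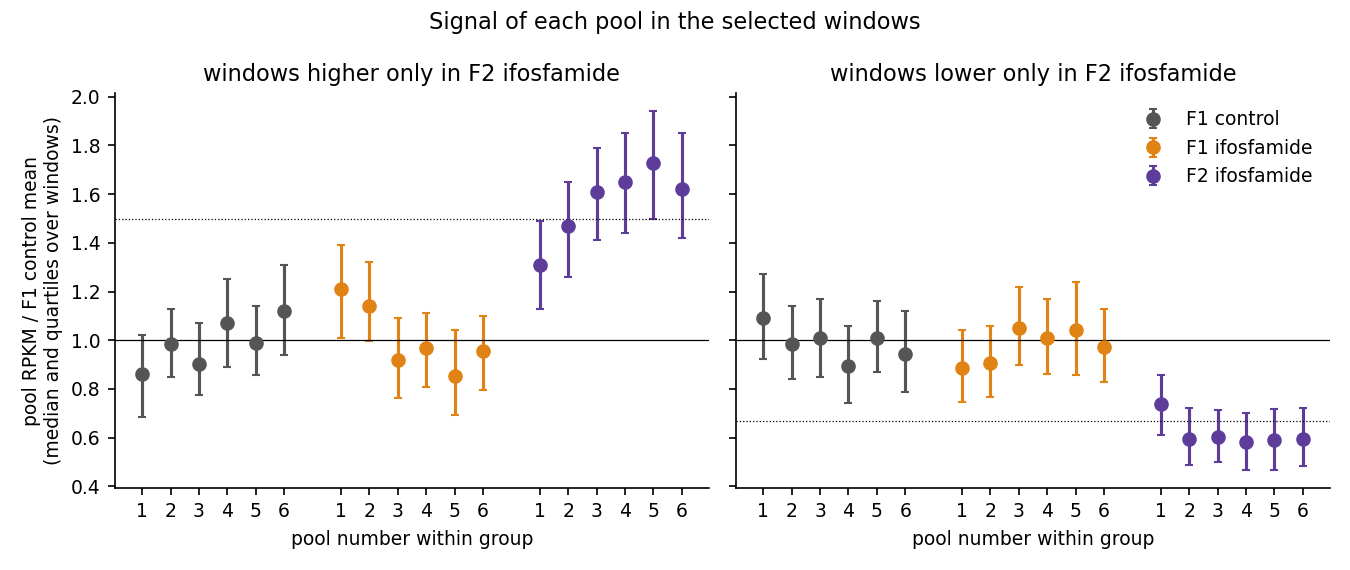
RPKM of each pool divided by the F1 control mean of the same window (vertical axis, ratio), for the 878 higher windows (left) and the 4519 lower windows (right), by pool number within group. Points are medians and bars the quartiles over windows, and dotted lines mark the thresholds of 1.5 and 0.67. F2 ifosfamide pool 1 lies nearest to 1 among the F2 pools on both sides, at 1.31 and 0.736.

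Membership changed with single pools. Of the higher windows 276 (31.4%) kept their place whichever F2 pool was left out, and of the lower windows 1805 (39.9%) did. Over all 18 pools left out in turn, 23 higher windows (2.62%) and 310 lower windows (6.86%) were selected every time. The number of windows the rule selected rose most without F2 ifosfamide pool 1, to 1827 higher and 7656 lower windows, and it was lowest without F1 control pool 1, at 742 and 4165. It was 1441 higher windows without F1 control pool 6 and 1377 without F2 ifosfamide pool 2. Leaving out F1 control pool 1 kept 48.4% of the higher and 59.7% of the lower windows, and leaving out F2 ifosfamide pool 1 kept 94.2% and 91.9%.

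The fit across the genome placed few selected windows among those that pass adjustment for all windows. By edgeR's quasi-likelihood test of F2 ifosfamide against F1 control, adjusted over 919249 tested windows, 0.0186% of windows were called higher and 0.0125% lower at an adjusted p below 0.05. All 878 higher windows were tested and 23 of them (2.62%) were called higher, which is 13.5% of the 171 higher calls. Of the 4519 lower windows 3954 had enough counts to be tested and 54 of these (1.37%) were called lower, which is 47% of the 115 lower calls. The untested lower windows were left out by the filter on low counts, which draws on the counts of both groups. Median log2 fold changes were 0.61 over the higher windows, -0.65 over the tested lower windows and -0.000485 over all windows tested. Because the rule used this contrast, the shares of called windows are not evidence for it. In the authors' deposited edgeR results of the same comparison, 14 higher windows (1.59%) had an adjusted p below 0.05. So did 54 of 4358 lower windows with a p-value (1.24%). Of all windows with a p-value 0.0216% did, with both directions counted together.

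Most of the calls outside the selected windows had an F1 ifosfamide mean away from control. Of 166 higher calls on chromosomes 1 to 20, 28 lay below the floor, 113 had an F1 ratio outside 0.9 to 1.1, 2 had an F2 ratio inside the thresholds and 23 were selected. Of 113 lower calls the numbers were 0, 55, 4 and 54. Against F1 ifosfamide pools instead of control pools, 1.249% of 1062540 tested windows were called higher in F2 and 0.898% lower. Among the selected windows 380 of 878 (43.3%) were called higher and 626 of 4441 tested (14.1%) lower. Both comparisons use the same F2 pools, and the second is also tied to the rule, which held F1 ifosfamide near F1 control.

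The higher window with the smallest p lay on chromosome 9 at 103428001 to 103429000, and had the highest control signal of all higher windows. Its signal was 2.38 to 4.88 RPKM in F1 control pools (median 3.88) and 2.58 to 4.45 in F1 ifosfamide pools (median 3.27). The F2 ifosfamide pools, in order of number, had 3.55, 4.56, 8.99, 10.28, 9.06 and 9.92 RPKM. Pools 1 and 2 lay within the range of the F1 pools and the other 4 lay far above it. The ratio of means was 2.07 with a counting interval of 1.84 to 2.27, and the log2 fold change was 1.03 (SE 0.14). The window just before it had a ratio of 2.01 and the window after it 1.04.

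The same split of the F2 pools appeared in other windows. On chromosome 1 at 186340001 to 186341000, F1 control pools had 1.12 to 1.64 RPKM (median 1.46) and F1 ifosfamide pools 1.06 to 1.88 (median 1.29). F2 pools 1 and 2 had 1.56 and 1.12 RPKM, within the F1 range, and pools 3 to 6 had 3.14 to 4.00. On chromosome 18 at 38098001 to 38099000, where the ratio of 2.32 was the largest of all higher windows, F1 control pools had 0.28 to 0.80 RPKM (median 0.6) and F1 ifosfamide pools 0.33 to 0.77 (median 0.49). F2 pools 1 and 2 had 0.52 and 0.54 RPKM there, and pools 3 to 6 had 1.23 to 1.97. In all 3 windows the F2 mean therefore averaged 4 pools with raised signal and 2 at the level of F1 sperm. The split was seen in these windows after their values were known.

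A window on chromosome 2 at 198036001 to 198037000 was the 1 named higher window in which the F2 pools stood above all 12 F1 pools. It had 0.61 to 1.31 RPKM in F1 control (median 1.15), 0.69 to 1.40 in F1 ifosfamide (median 0.96) and 1.69 to 2.45 in F2 ifosfamide pools (median 2.18). Its ratio was 1.91 and its log2 fold change 0.90 (SE 0.15). On chromosome 14 at 102147001 to 102148000 the F2 pools, at 2.15 to 3.14 RPKM, stood above the control pools at 0.99 to 1.88 but not above the F1 ifosfamide pools, which reached 2.47. On chromosome 8 at 131833001 to 131834000 the order was the reverse. F2 pools at 1.82 to 2.92 RPKM cleared the F1 ifosfamide pools at 1.09 to 1.55, while the lowest of them fell below the highest control pool at 1.88.

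On chromosome 4 at 119181001 to 119182000, F2 pool 3 reached 6.65 RPKM and the other F2 pools 2.74 to 3.82, with F1 control at 1.68 to 3.42 RPKM (median 2.29). Pool 3 raised the F2 mean more than any other pool. A pair of higher windows stood 26 kb apart on chromosome 10, at 69210001 to 69211000 and at 69236001 to 69237000. The first had 1.72 to 5.06 RPKM in control and 3.10 to 5.75 in F2 pools, and the second 2.33 to 6.14 and 3.94 to 7.30. In both, 1 F2 pool passed the highest control pool. On chromosome 11 at 31885001 to 31886000, 5 of the 6 F2 pools passed all F1 pools, at 3.45 to 5.82 RPKM in F2 against 2.63 to 3.86 in control (ratio 1.52, log2 fold change 0.58, SE 0.12). On chromosome 19 at 55108001 to 55109000 the signal was low, at 0.23 to 0.79 RPKM in control and 0.65 to 1.39 in F2 pools, and the ratio was 2.02.

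**Figure D4:**
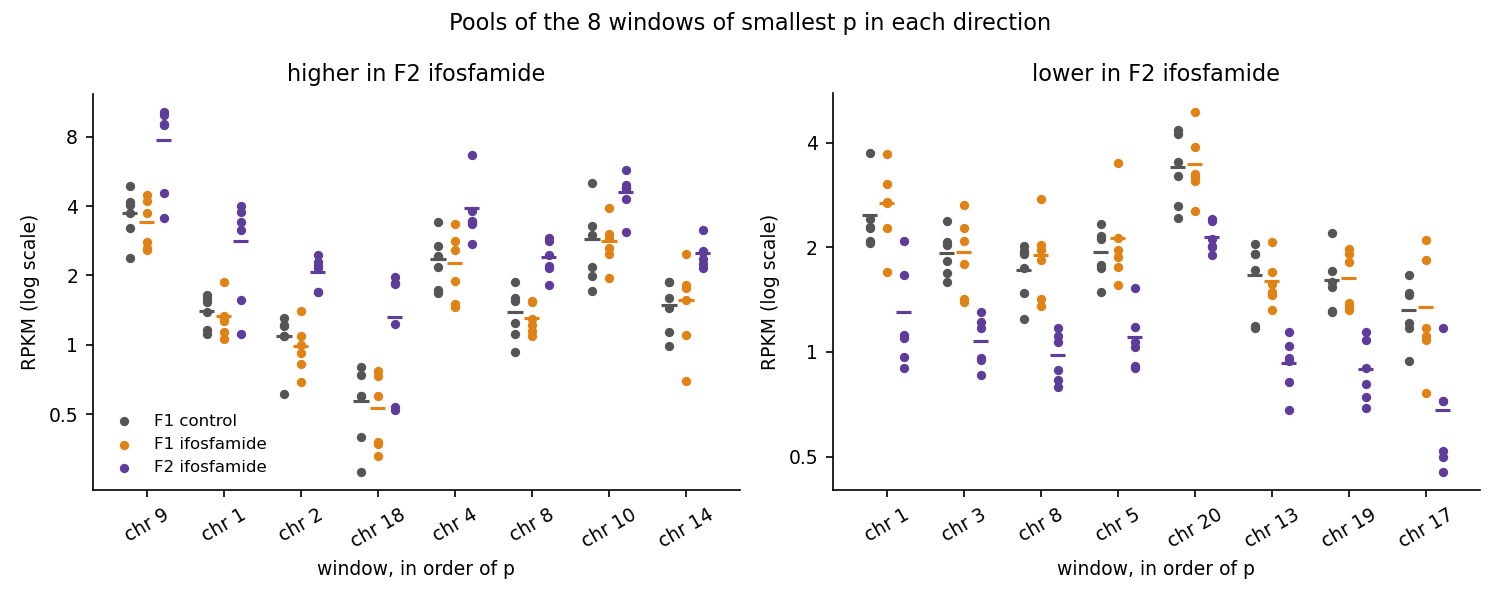
RPKM on a log axis of every pool in the 8 higher (left) and 8 lower windows (right) with the smallest p, each labelled by its chromosome, with 1 point per pool and a bar at the group mean. In the higher windows on chromosomes 9, 1 and 18 a pair of F2 ifosfamide points lies within the F1 points and the other 4 lie above them, whereas in 5 of the 8 lower windows all F2 points lie below all F1 points.

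Among the named lower windows, F2 pools lay below all control pools in 11 of 15 and below all 12 F1 pools in 7, and in the named higher windows they lay above them in 2 and 1 of 11. These windows were picked by p, signal or ratio, so the counts describe the choice. Over all selected windows the order was the other way, at 9.6% and 3.1% of lower and 12.9% and 4.33% of higher windows. On chromosome 3 at 169329001 to 169330000, F1 control pools had 1.59 to 2.38 RPKM (median 1.93), F1 ifosfamide pools 1.39 to 2.65 (median 1.94) and F2 pools 0.86 to 1.30 (median 1.06). On chromosome 8 at 75574001 to 75575000 the same groups had 1.24 to 2.02 (median 1.82), 1.36 to 2.76 (median 1.9) and 0.79 to 1.17 RPKM (median 0.98). In both windows every F2 pool lay below every F1 pool. Their log2 fold changes were -0.85 (SE 0.15) and -0.84 (SE 0.16).

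On chromosome 20 at 8052001 to 8053000, a window of higher signal, control pools had 2.43 to 4.35 RPKM (median 3.37), F1 ifosfamide pools 2.54 to 4.92 (median 3.22) and F2 pools 1.90 to 2.41 (median 2.07). The groups did not overlap, although the highest F2 pool and the lowest control pool differed by little. The F2 pools were closer together, with an SD of 0.21 RPKM (n = 6) against 0.799 in control and 0.825 in F1 ifosfamide. The windows on chromosome 13 at 100666001 to 100667000 and chromosome 19 at 57085001 to 57086000 also separated all F2 pools from all F1 pools, with ratios of 0.56 and 0.555. The lower window with the highest control signal, on chromosome 3 at 45694001 to 45695000, had 3.31 to 5.19 RPKM in control (median 3.78), 2.95 to 4.60 in F1 ifosfamide (median 3.8) and 2.02 to 3.20 in F2 pools (median 2.47). Its F2 pools cleared the control pools but overlapped the F1 ifosfamide pools. On chromosome 20 at 21982001 to 21983000 the F2 pools, at 1.03 to 2.38 RPKM (median 2.13), lay just below the lowest control pool at 2.43 and the lowest F1 ifosfamide pool at 2.47. On chromosome 4 at 84329001 to 84330000, F2 pools at 1.43 to 2.41 RPKM overlapped control pools at 2.03 to 3.77.

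In 3 of the 4 named lower windows where F2 and control pools overlapped, the overlap came from F2 pool 1. On chromosome 1 at 54181001 to 54182000 the F2 pools in order had 2.09, 1.66, 1.10, 0.90, 1.12 and 0.97 RPKM, and only pool 1 passed the lowest of the control pools, which ran from 2.06 to 3.73 (median 2.28). On chromosome 17 at 78749001 to 78750000 F2 pool 1 had 1.17 RPKM and the other 5 pools 0.45 to 0.72, against 0.94 to 1.66 in control (median 1.33). On chromosome 5 at 143782001 to 143783000 F2 pool 1 had 1.53 RPKM and the others 0.90 to 1.18, against 1.49 to 2.33 in control (median 1.94). In each of these 3 windows the other 5 F2 pools lay below every control pool.

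The lowest ratios belonged to windows near the floor. On chromosome 6 at 110253001 to 110254000, 77 counts in control and 30 in F2 pools gave means of 0.543 and 0.19 RPKM, a ratio of 0.35 with a counting interval of 0.227 to 0.553, and 1 F2 pool was listed at 0. The windows on chromosome 4 at 68032001 to 68033000 (71 and 27 counts, ratio 0.352) and chromosome 11 at 46882001 to 46883000 (77 and 32 counts, ratio 0.385) were alike. None of these 3 had enough counts to enter the fit. The next, on chromosome 4 at 119371001 to 119372000, fell from 0.50 to 0.89 RPKM in control pools to 0.08 to 0.46 in F2 pools (ratio 0.399, log2 fold change -1.29, SE 0.26). Its F2 pools lay below every control pool.

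Selected windows stood mostly alone in the genome. Among neighbouring windows with 0.5 RPKM or more in F1 control, a shift of the median ratio was seen directly beside them, at 1.14 on either side of higher windows and at 0.894 and 0.895 beside lower windows. At 2 kb it was 1.02 on both sides of higher windows and 0.973 and 0.968 beside lower windows, against 0.988 beside unshifted windows. Reads that span a border count in both windows, and how much of the shift in adjacent windows comes from such reads was not tested. Both neighbours had an F2 mean above control for 44.8% of higher windows and both had it below for 45.5% of lower windows, against 23.6% and 25.9% of unshifted windows. The F1 ratio of the neighbouring windows was 0.987 and 0.989 directly beside higher windows, and 1.03 and 1.02 at 2 kb from them. It was 1.02 to 1.04 within 2 kb of lower windows and 1.03 within 2 kb of unshifted windows.

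**Figure D5:**
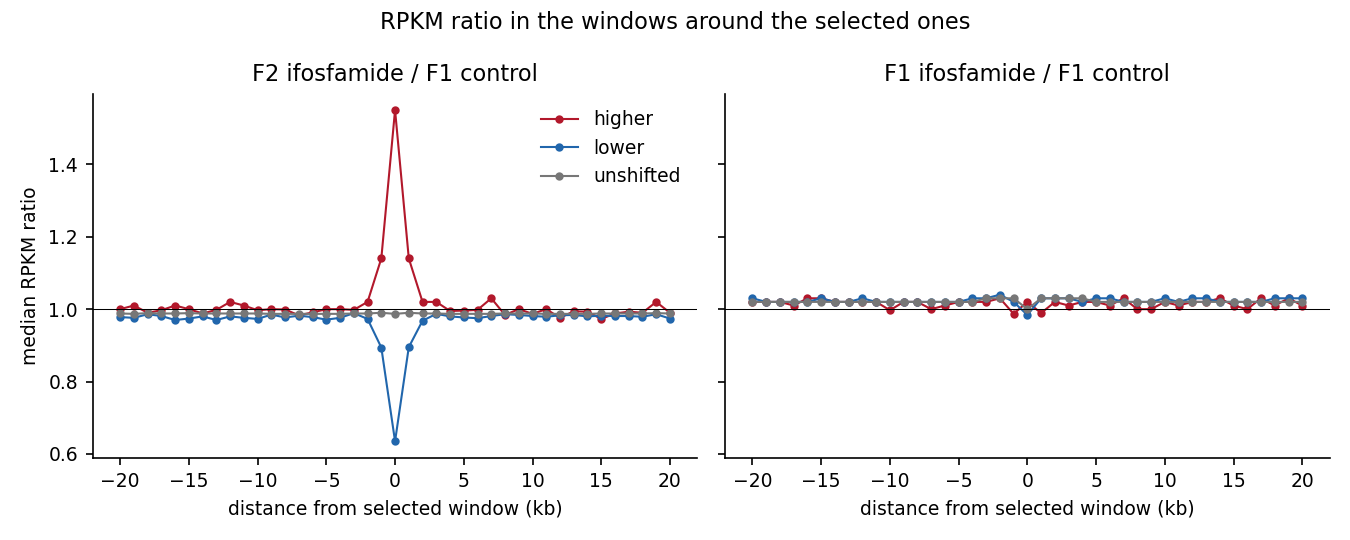
Median ratio of RPKM means in windows with 0.5 RPKM or more in F1 control up to 20 kb on either side of the selected ones (horizontal axis, kb from the selected window at 0), for F2 ifosfamide over F1 control (left) and F1 ifosfamide over F1 control (right). Selected higher (red) and lower windows (blue) depart from unshifted windows (grey) at 0, as chosen, and at 1 kb, with 1.14 and 0.894 to 0.895, and lie near them from 2 kb outward.

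An adjacent window selected in the same direction was found for 12 higher windows (1.37%) and 162 lower windows (3.58%). Of unshifted windows 0.094% had an adjacent higher and 0.535% an adjacent lower window. Within 10 kb, 16 higher windows (1.82%) and 383 lower windows (8.48%) had a like neighbour, against 0.817% and 4.55% of unshifted windows. By far the most stood single: 862 higher (98.2%) and 4136 lower windows (91.5%) had no like window with its start within 10 kb. There were 8 pairs of higher and 181 pairs of lower windows, and 7 runs of 3 lower windows.

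The 7 runs show the extent that joined shifts reached. A run of 3 adjacent lower windows covered chromosome 15 at 10344001 to 10347000, where control means of 0.637, 0.562 and 0.578 RPKM stood against F2 means of 0.295, 0.293 and 0.368. Its ratios were 0.463, 0.522 and 0.637, and its F1 ratios 1.08, 1.04 and 0.98. A second run of adjacent windows covered chromosome 6 at 8564001 to 8567000 with ratios of 0.662, 0.67 and 0.607, the middle window at 1.28 RPKM in control and 0.858 in F2 sperm. The other runs spanned 7 kb on chromosome 13 from 69525001, 11 kb on chromosome 7 from 54582001, 12 kb on chromosome 10 from 105423001 and on chromosome 18 from 56869001, and 17 kb on chromosome 9 from 12738001, with unselected windows in between. Of their 21 windows 7 had too few counts to enter the fit against F1 control. None of the others was called (edgeR quasi-likelihood test, adjusted p of 0.101 to 0.478).

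Selected windows were spread over every autosome. Higher windows made up 0.181% (chromosome 3) to 0.342% (chromosome 19) of the F1-stable windows, and lower windows 1.09% (chromosome 5) to 1.49% (chromosome 20). Within 2 Mb of a chromosome end as covered by the windows lay 2.16% of higher, 2.21% of lower and 2.36% of unshifted windows. A window exceeded both of its neighbours in F1 control signal in 53.1% of higher, 53.6% of lower and 56.6% of unshifted cases. In 5 higher (0.569%), 13 lower (0.288%) and 940 unshifted windows (0.267%) the counts over all 18 pools were at least 10 times those of either neighbour.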

How the data were processed

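The analysis used 2 deposited tables with 18 of the 34 libraries in the labels; the other 16 were not analysed here. Per the file headers, the authors gave read counts per 1 kb window and library, RPKM values beside them, and adjusted p-values of their own edgeR comparisons. The deposited RPKM have 2 decimals. The submitters' processing notes name Rnor_6.0 as the build and, as tools, Bowtie2, Trimmomatic, edgeR, SAMtools and FastQC. The sources used here give no versions.

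The tables were joined by window, and windows were selected on group means of the deposited RPKM by the conditions in the report. The part played by each pool was described without a test, since all pools entered the rule. The deposited counts of all windows, not only of selected ones, were fitted with edgeR 4.0.16 in R 4.3.3 (TMM, filterByExpr with a minimum count of 10, quasi-likelihood, two-sided, no covariates, 12 pools per comparison). P-values were adjusted by Benjamini-Hochberg over all windows tested, and a window below 0.05 is termed called. The fit was also run on simulated counts with the same dispersion in every window and windows drawn independently. Adjacent windows of these data share reads, so that run gives no error rate for them. Fold changes are on the log2 scale with standard errors (SE), taken as the absolute fold change over the square root of the quasi-likelihood F statistic. These SE draw on a variance moderated across windows and can be smaller than the spread between the pools of a window would give. Intervals of a ratio of counts are exact at 95%; reads without molecular identifiers are not independent molecules, so they cover counting error only.

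Named windows follow a rule on p (8 per direction), F1 control signal (4), ratio (4), runs of at least 3 windows with starts at most 10 kb apart (the 3 longest; 7 tied), and nearness to the threshold (2 inside and 2 outside, of which 1 each is printed). The selected windows, this rule and the lists were chosen with earlier results of these data known. Deviations of same-numbered F1 control and F2 pools correlated at -0.015 to 0.070, and those of F1 ifosfamide and F2 pools at -0.143 to -0.015. The main fit did not pair pools by number, and whether the numbers mark a shared origin or handling was not tested. Alternatives were TMM-scaled counts, medians, other floors and F1 ranges, DESeq2 1.42.0, other filters, a replicate block and leaving out each pool.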

Additional observations from a re-analysis of the deposited data

Results flagged for a closer look

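In 7 of 84 groups of 6 pools examined (the 3 groups of each named window, and the pool medians over the selected windows), 1 pool stood far from the other 5, with a gap to the nearest of them above Dixon's 95% critical value. Chance alone marks about 1 in 20 such groups. The F1 control pool 3 had 3.73 RPKM in the lower window at 54181001 on chromosome 1, where the next was 2.42. F1 ifosfamide pool 1 had 1.88 RPKM in the higher window at 186340001 on chromosome 1, where the next was 1.33. F1 control pool 1 had 0.61 RPKM in the higher window at 198036001 on chromosome 2, where the next was 1.09. F2 ifosfamide pool 3 had 6.65 RPKM in the higher window at 119181001 on chromosome 4, where the next was 3.82. F1 ifosfamide pool 5 had 3.49 RPKM in the lower window at 143782001 on chromosome 5, where the next was 2.13. F2 ifosfamide pool 5 had 1.03 RPKM in the lower window at 21982001 on chromosome 20, where the next was 1.98. Over the lower windows as a whole, F2 ifosfamide pool 1 stood apart from the other F2 pools with a median of 0.736 times the F1 control mean.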

How the results depend on the processing

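The number of selected windows, 878 higher and 4519 lower, moved within 1.5 times on TMM-scaled counts (857 and 4696) and with F1 ifosfamide pools 1 and 2 taken as 1 pool, an alternative added after seeing the data. It moved further with medians in place of means (1726 and 6848), with a floor of 1 RPKM (90 and 630) or none (19683 and 49842), and with F1 ifosfamide within 5% of control (453 and 2364) or from 0.8 times control to the reciprocal (1960 and 8173). With floors added after seeing the data it was 1388 higher windows on the mean of the 3 groups, and 2650 and 1424 on F2 ifosfamide. Leaving out 1 pool gave 742 to 1827 higher and 4165 to 7656 lower windows. Selected windows called against F1 control, 23 higher and 54 lower, numbered 7 and 13 with a minimum count of 30, 36 higher with at least 1 count in every library, and 5 and 3 by DESeq2, which gave an adjusted p to 29 higher and 9 lower ones. With the replicate block they numbered 64 and 136. No same-numbered pair of pools correlated above 0.1, and 2 of 6 control pools correlated best with their own number. Without 1 pool, 3 to 121 higher and 8 to 295 lower windows were called, lowest for higher windows without F2 pool 3 and for lower ones without F1 control pool 2, and most in both directions without F2 pool 1. Each of the 12 pools moved at least 1 of these counts by over 1.5 times. Of the named windows called, 8 of 11 higher and 8 of 10 lower lost the call in at least 1 of these refits, and 10 and 8 in at least 1 refit of any kind. The higher windows at 103428001 on chromosome 9 and 186340001 on chromosome 1 kept it without any 1 pool (adjusted p of 4.62e-11 to 0.000135 and 1e-06 to 0.0227) but not by DESeq2 (0.137 and 0.213). Against F1 ifosfamide, 380 higher and 626 lower calls became 157 and 116 with a minimum count of 30, 241 and 359 with the replicate block, 131 and 102 by DESeq2, and 141 to 509 and 208 to 1113 without 1 pool, with each pool except F1 ifosfamide pool 2 moving a count by over 1.5 times. The cause of these changes was not tested, beyond fewer windows tested at a minimum count of 30. No log2 fold change of a named window changed sign in any refit. These windows were chosen by their ratio in the same pools, so the unchanged sign is no support for them. Depth limits the selection: at medians of 91 and 95 control counts per window, the counting interval lay wholly past the threshold in 4 higher and 28 lower windows.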
